A study of Mus musculus with 17 samples.

Results

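The genes described here encode the enzymes that consume tryptophan along the kynurenine route, together with Wars, the cytosolic tryptophanyl-tRNA synthetase. They are Ido1, Ido2, Tdo2, Afmid, Kmo, Kynu, Haao and Wars, chosen by symbol, and all 8 were among the 18262 genes listed in the deposited expression table. They were measured by bulk RNA sequencing of C57BL/6 mouse lungs in 4 groups of 4 libraries and in 1 library of an injected cell product.

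The tumor_GEMy lungs came from mice that had received 500000 M3-9-M ffluc-mCherry rhabdomyosarcoma cells in the gastrocnemius muscle and, on day 12, 8000000 IL12-GEMy intravenously. An IL12-GEMy is a myeloid cell engineered to secrete interleukin 12, a cytokine that induces interferon gamma in T and NK cells. The tumor_untreated lungs came from tumor-bearing mice without these cells, and tumor lungs were taken on day 15, which was 3 days after the cells. The naive_GEMy lungs came from tumor-free mice given the same cells, and the naive_untreated lungs from tumor-free mice given nothing. The cell product was naive bone marrow after lentiviral transduction and culture with SCF, FLT3L and IL-6, and it is a single library. All lungs were whole organs, so fewer cells of a type and less RNA per cell cannot be told apart in any value below. In the sample descriptions all tumor_untreated libraries share a number, and all tumor_GEMy libraries share a different number. What that number stands for is not given, and it cannot be told apart from treatment. The labels give no age, and they do not say whether the 4 libraries of a group are 4 mice. The p-values therefore measure the spread between these libraries.

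Tryptophan is opened to N-formylkynurenine by Ido1, Ido2 or Tdo2, and this first step is rate-limiting. Afmid removes the formyl group to give kynurenine, Kmo hydroxylates kynurenine, Kynu cleaves the product to 3-hydroxyanthranilate, and Haao opens that ring on the way to quinolinate and NAD. Ido1 and Wars are textbook targets of interferon gamma, and Ido1 is known for restraining T cells in inflamed lung and in tumors, while Tdo2 is known from the liver.

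Levels are given as reads per 1000000 assigned reads (RPM), which is the deposited FPKM multiplied by the length it had been divided by. Fold changes are differences of mean log2(RPM + 0.5) with their standard error (SE), from a limma fit of the 4 lung groups across 17192 genes, and a gene was called where its Benjamini-Hochberg adjusted p over all 17192 was under 0.05. The added 0.5 understates the change of low genes. Lung libraries held 27566838 to 36815044 reads and the product 31111311. Hemoglobin reads made up 4.15% of tumor_untreated library 4 and 0.0735 to 1.78% of the other lungs, and results are given without that library where its absence changes a call.

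Ido1 and Wars rose in tumor_untreated and in naive_GEMy lungs against naive_untreated lungs, and in tumor_GEMy lungs against both untreated groups. The members of the route below the first step showed small differences, and 1 of them, Kmo, was called, lower, in 1 comparison. Against naive_untreated lungs, 3 of 8 members were higher and 1 lower in tumor_GEMy, where 11.2% of all tested genes were higher and 21.8% lower. The naive_GEMy lungs had 2 members higher and 0 lower, against 4.53% and 1.38% of all genes, and the tumor_untreated lungs had 2 higher and 0 lower, against 13.6% and 23.2%. Of tumor_GEMy against tumor_untreated lungs, 2 were higher and 0 lower, with 2.22% and 2.57% of all genes. Of tumor_GEMy against naive_GEMy lungs, 0 members were called in either direction, with 3.48% higher and 5.68% lower of all genes. In that comparison limma gave 3 members with an unadjusted p under 0.05, Afmid, Kmo and Haao, all lower, and voom on the recovered reads also called 0.

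**Figure D1:**
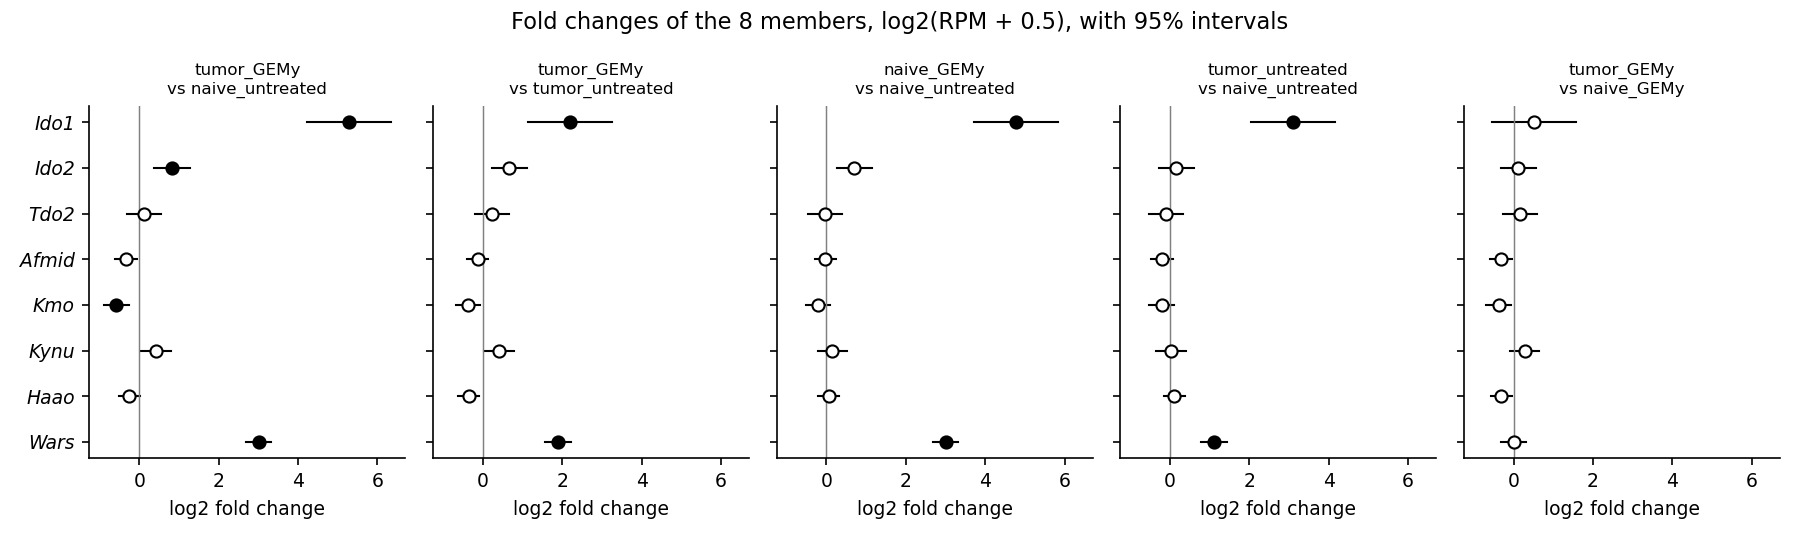
Fold changes of the 8 genes in the 5 pairs of lung groups, as differences of mean log2(RPM + 0.5) with 95% confidence intervals. Filled points are genes with an adjusted p under 0.05. Ido1 and Wars lie far to the right in every pair except tumor_GEMy against naive_GEMy, where both intervals include 0.

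Ido1, the interferon-inducible dioxygenase of the first step, lies on chromosome 8 on the minus strand, chr8:24584133-24596952 in mm10. It had 53.3, 81.2, 108 and 48.3 RPM in the 4 tumor_GEMy libraries, 4.04, 12.1, 23.5 and 38.6 RPM in tumor_untreated, 56.6, 40.1, 38.5 and 61.7 RPM in naive_GEMy, and 1.36, 1.16, 1.34 and 1.24 RPM in naive_untreated. The naive_untreated values were the lowest 4 of the 16 and rested on 34 to 38 reads each, and the tumor_untreated values spread over nearly a decade. Every tumor_GEMy and naive_GEMy library lay above every naive_untreated library, and every tumor_GEMy library also lay above every tumor_untreated library, with tumor_untreated library 4 just above the lowest naive_GEMy library.

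Against naive_untreated lungs, Ido1 was higher in tumor_GEMy by 5.29 on the log2 scale (SE 0.49, adjusted p 2.41e-06), the 5th highest of 17192 fold changes, and the ratio of mean RPM was 57.1. In naive_GEMy it was higher by 4.78 (SE 0.49, adjusted p 1.67e-05), and in tumor_untreated by 3.10 (SE 0.49, adjusted p 0.000311). On the deposited FPKM scale, where the added 0.5 weighs more on a gene this low, these 3 values are 3.30, 2.83 and 1.56, and all stay called. Against tumor_untreated lungs, Ido1 in tumor_GEMy lungs was higher by 2.19 (SE 0.49, adjusted p 0.0188). That last call is lost when the fit holds only the 8 tumor libraries (adjusted p 0.202). It is also lost without tumor_GEMy library 2 (0.0585), tumor_GEMy library 3 (0.0554) or tumor_untreated library 2 (0.0553). Between tumor_GEMy and naive_GEMy lungs the difference was 0.51, with a 95% interval of -0.54 to 1.57 (adjusted p 0.549).

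Wars charges the tRNA for tryptophan and so competes with the dioxygenases for the same amino acid. It lies at chr12:108860030-108894174 in mm10, on the minus strand. It had 1567, 1613, 1561 and 1294 RPM in tumor_GEMy, 289, 397, 443 and 530 RPM in tumor_untreated, 1729, 1504, 1194 and 1636 RPM in naive_GEMy, and 208, 199, 157 and 187 RPM in naive_untreated. The lungs given IL12-GEMy formed a single high range whether or not the mouse carried a tumor, the tumor_untreated lungs an intermediate range, and the naive_untreated lungs the lowest, with no overlap between these 3 ranges.

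Wars was higher by 3.01 in tumor_GEMy (SE 0.15, adjusted p 6.90e-10), by 3.00 in naive_GEMy (SE 0.15, adjusted p 1.39e-09) and by 1.12 in tumor_untreated lungs (SE 0.15, adjusted p 3.44e-05), each against naive_untreated. Against tumor_untreated lungs it was higher by 1.89 in tumor_GEMy (SE 0.15, adjusted p 2.72e-06). Tumor_GEMy and naive_GEMy averaged 1509 ± 145 and 1516 ± 234 RPM (SD, n = 4 each). Their difference was near 0 on the log2 scale, with an interval of -0.32 to 0.33 and a sign that depends on the scaling.

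**Figure D2:**
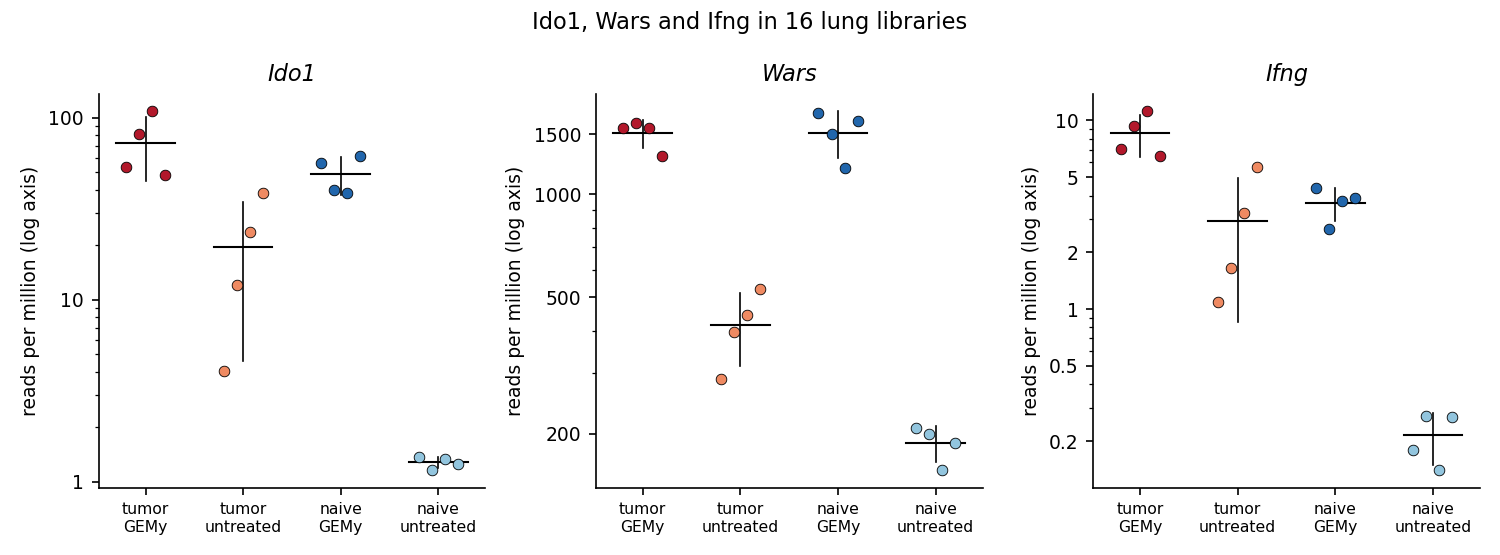
Ido1, Wars and Ifng in RPM on log axes, 1 point per lung library, with the group mean (horizontal line) and SD (vertical line), n = 4 each. In the tumor_untreated group the libraries take the same order for all 3 genes, and the naive_untreated libraries are lowest.

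The change of Wars with IL12-GEMy was smaller in tumor-bearing than in tumor-free mice, as a difference of the fold changes of -1.11 (SE 0.22, adjusted p 0.00658). For Ido1 that difference was -2.59 (SE 0.69, adjusted p 0.0519) and was not called. It is called without tumor_untreated library 1, the one with the lowest Ido1 (-3.17, adjusted p 0.000476). Over 26 alternatives it ran from -3.17 to -1.09 with an adjusted p of up to 0.222, and 20 of them left it uncalled. Over all genes 3.37% were called lower and 0.82% higher for this difference, and among the 8 members Wars was the 1 called. The other 6 had -0.42 for Haao (adjusted p 0.229), 0.27 for Tdo2, 0.25 for Kynu, -0.16 for Kmo, -0.11 for Afmid and -0.04 for Ido2.

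Ifng, the gene of interferon gamma, was looked at library by library after its values were seen. It had 7.09, 9.40, 11.2 and 6.51 RPM in tumor_GEMy, 1.09, 1.65, 3.23 and 5.70 RPM in tumor_untreated, 4.37, 2.67, 3.73 and 3.88 RPM in naive_GEMy, and 0.179, 0.273, 0.141 and 0.269 RPM in naive_untreated. Ido1 and Ifng took the same order of libraries within tumor_GEMy and within tumor_untreated, and a different one within naive_GEMy. Wars took that order within tumor_untreated, but not within tumor_GEMy. The naive_GEMy lungs, all with less Ifng than tumor_untreated library 4, had 38.5 to 61.7 RPM of Ido1, against 38.6 RPM in that library, and 1194 to 1729 RPM of Wars, against 530 RPM. That library is the one with 4.15% hemoglobin reads. The part of Ifng in the Ido1 and Wars values was not tested.

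The interferon gamma axis, a list of 13 genes from the cytokine and its receptor to its transcription factors and targets, was higher at 10 members and lower at 0 in tumor_GEMy against naive_untreated lungs, with a median of 1.79 against -0.10 for all genes. In naive_GEMy 9 were higher and 0 lower (median 1.66 against -0.03), and in tumor_untreated 12 were higher and 0 lower (median 0.76 against -0.08). Shares of all genes called higher and lower against naive_untreated were 11.2% and 21.8% in tumor_GEMy, and 4.53% and 1.38% in naive_GEMy. For tumor_untreated they were 13.6% and 23.2%. Cxcl9, a chemokine that draws T cells, had the largest change of the list in tumor_untreated (5.79, adjusted p 2.07e-07). In tumor_GEMy against tumor_untreated lungs 8 were higher and 2 lower, beside 2.22% and 2.57% of all genes. The lower ones were the receptor chains Ifngr1 (-0.43, adjusted p 0.000738) and Ifngr2 (-0.32, adjusted p 0.0228). For the difference between the fold changes with and without a tumor, 8 of 13 were lower and 0 higher. Of all genes 3.37% were lower and 0.82% higher for it. Ifng itself was not called (-0.96, adjusted p 0.260).

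Over the 16 lungs, the genes whose log2 levels followed Ido1 most closely among 13714 candidates were Gbp2 (Pearson r 0.995), Gbp5 (0.995) and Apol10b (0.993), the first of them guanylate-binding proteins. Those closest to Wars were Ciita (0.987), the master regulator of MHC class II genes, Uba7 (0.986) and Apol9b (0.986). Ido1 and Wars correlated with each other at 0.949. These are descriptions across libraries that share the 4 groups.

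Markers of immune cells moved in the same lungs. The 10 monocyte and macrophage markers summed to 891 to 1252 RPM in tumor_GEMy, 858 to 1467 in tumor_untreated, 739 to 983 in naive_GEMy and 463 to 533 in naive_untreated. The 10 T and NK cell markers summed to 283 to 376 RPM in tumor_GEMy, 145 to 336 in tumor_untreated, 206 to 316 in naive_GEMy and 78.4 to 116 in naive_untreated. The 10 conventional dendritic cell markers summed to 480 to 589 RPM in tumor_GEMy, 520 to 606 in tumor_untreated, 491 to 564 in naive_GEMy and 520 to 595 in naive_untreated, but the members went both ways. Of these 10, 4 were higher and 3 lower in tumor_GEMy against naive_untreated lungs, from Cd209a at -1.15 to Xcr1 at 1.10. Of all genes, 11.2% were higher and 21.8% lower there. Against the same lungs, 2 of the 10 were higher and 0 lower in naive_GEMy (4.53% and 1.38% of all genes). In tumor_untreated 4 were higher and 2 lower (13.6% and 23.2% of all genes). The 10 neutrophil markers summed to 1658 to 5281 RPM in tumor_GEMy and 3170 to 5316 in tumor_untreated lungs, against 228 to 400 in naive_GEMy and 269 to 398 in naive_untreated. The part of these 4 marker lists in the Ido1 and Wars values was not tested.

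The other cytosolic tRNA synthetase genes give a frame for Wars. Of 19 listed, 18 were in the table. In tumor_GEMy against naive_untreated lungs 5 of them were higher and 0 lower, beside 11.2% and 21.8% of all genes. The largest was Rars at 0.35 (adjusted p 0.00665). In naive_GEMy against naive_untreated 1 was higher, Kars at 0.26 (adjusted p 0.0209), and 0 lower, beside 4.53% and 1.38% of all genes. In tumor_untreated 0 were called, with values of -0.14 to 0.21, beside 13.6% higher and 23.2% lower of all genes. In tumor_GEMy against tumor_untreated 2 were higher, Kars at 0.36 and Aars at 0.28, and 0 lower, beside 2.22% and 2.57% of all genes. No value of these 18 genes in the 5 pairs was above 0.36, whereas Wars reached 1.12 to 3.01 in 4 of them. For the difference of fold changes the 18 lay between -0.10 and 0.20, none of them called. Wars2, the mitochondrial tryptophanyl-tRNA synthetase, had 9.53 to 11.4 RPM in tumor_GEMy, 9.00 to 11.6 in tumor_untreated, 9.31 to 11.7 in naive_GEMy and 9.95 to 11.6 in naive_untreated, ranges that overlap throughout. The longest run of bases that Wars and Wars2 share in their coding sequences is 11.

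**Figure D3:**
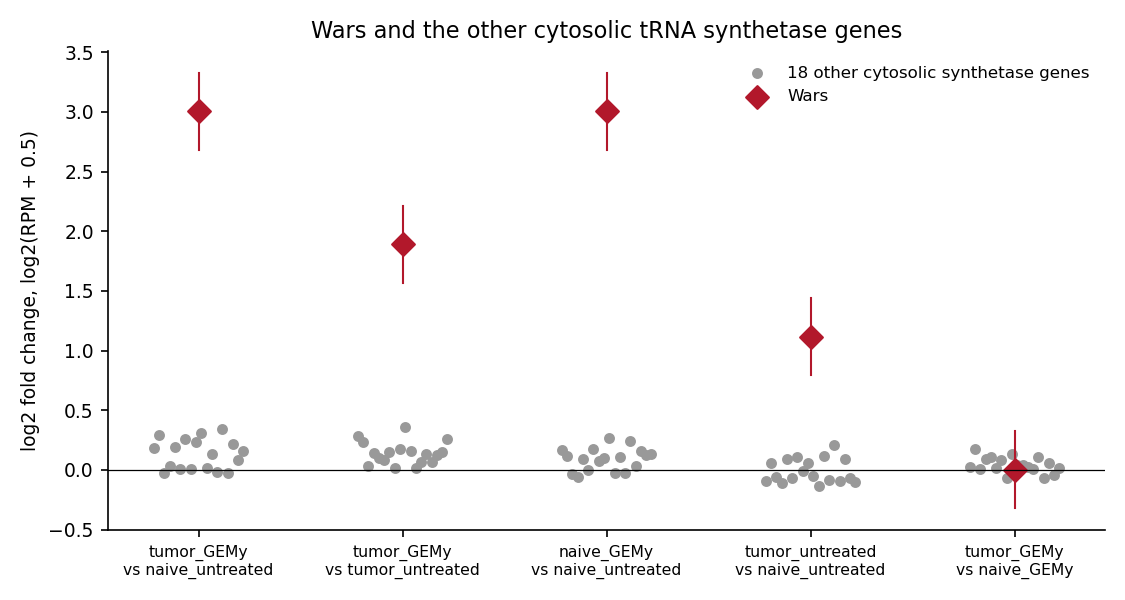
Log2 fold changes of Wars (diamonds, with 95% intervals) and of the 18 other cytosolic tRNA synthetase genes (grey points) in the 5 pairs of lung groups. Wars stands between 1.12 and 3.01 in the first 4 pairs and near 0 in tumor_GEMy against naive_GEMy, and no grey point is above 0.36.

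Ido2 is the paralog of Ido1 and lies beside it, at chr8:24531892-24576333 in mm10 and on the same strand, with 7799 bases and no listed gene between them. Since reads from near-identical copies could be shared, the coding sequences were compared, and the longest run common to both is the 15 bases shown here from the GENCODE transcripts, at bases 238 to 252 of each coding sequence.

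Ido1 and Ido2: cagcgcctggcacac

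Ido2 had 0.570, 0.734, 1.18 and 0.592 RPM in tumor_GEMy, 0.0302, 0.227, 0.726 and 0.308 RPM in tumor_untreated, 0.437, 0.952, 0.562 and 0.706 RPM in naive_GEMy, and 0.215, 0.341, 0.141 and 0.135 RPM in naive_untreated. These values rest on 1 to 39 reads per library. Both groups given IL12-GEMy lay above all naive_untreated libraries, and tumor_untreated overlapped every other group. Ido2 was called in tumor_GEMy against naive_untreated lungs, higher by 0.83 (SE 0.21, adjusted p 0.00629). It was 0.71 in naive_GEMy against naive_untreated (adjusted p 0.0561) and 0.67 in tumor_GEMy against tumor_untreated (adjusted p 0.0831), neither of them called. The first is called with quantile normalization (0.71, adjusted p 0.0499) and in a fit of those 8 libraries alone (adjusted p 0.00758), and the second without tumor_untreated library 3 (0.88, adjusted p 0.0132). Against tumor-free untreated lungs, tumor_untreated lungs showed 0.16 (adjusted p 0.579), and tumor_GEMy against naive_GEMy lungs showed 0.12 (adjusted p 0.762).

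Ido2 reads were 0.746 to 3.08% of Ido1 reads in the 12 lungs of the 3 other groups and 10.5 to 29.4% in naive_untreated, so Ido2 did not keep a fixed ratio to Ido1. The correlation of the 2 genes over the 16 lungs was 0.80, and its libraries share the 4 groups.

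Tdo2, the dioxygenase best known from hepatocytes, lies at chr3:81958414-81975728 in mm10. It had 0.788, 0.600, 1.42 and 0.822 RPM in tumor_GEMy, 1.03, 0.519, 0.726 and 0.493 RPM in tumor_untreated, 0.303, 0.767, 0.914 and 1.06 RPM in naive_GEMy, and 0.895, 0.750, 0.844 and 0.572 RPM in naive_untreated. The 4 groups overlapped. No comparison called Tdo2, and its values ran between -0.10 and 0.23 in the 5 pairs, with an interval of -0.30 to 0.56 for tumor_GEMy against naive_untreated. Of 8 liver markers 4 were in the table, and these summed to 0.999 to 1.92 RPM in the lungs.

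Summed over the 3 dioxygenases, Ido1 made up 97.2 to 98.4% of the first-step reads in tumor_GEMy lungs, 79.3 to 98.0% in tumor_untreated, 95.9 to 98.7% in naive_GEMy and 51.5 to 63.8% in naive_untreated. Without correction for length, these shares describe reads. The 5 other tested genes that use tryptophan or its amines, with Il4i1, had 0 members higher in any pair. In tumor_untreated against naive_untreated lungs 4 of them were lower. The largest changes were Maoa (-0.54, adjusted p 0.000562) and Maob (-0.54, adjusted p 1.99e-05), which act on serotonin and other amines, and Ddc (-0.52, adjusted p 0.0309). Of all genes 23.2% were lower there. In tumor_GEMy against naive_untreated 3 were lower (21.8% of all genes), in naive_GEMy against naive_untreated 1 (1.38%), which was Maoa, and in tumor_GEMy against naive_GEMy 1 (5.68%), which was Maob.

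**Figure D4:**
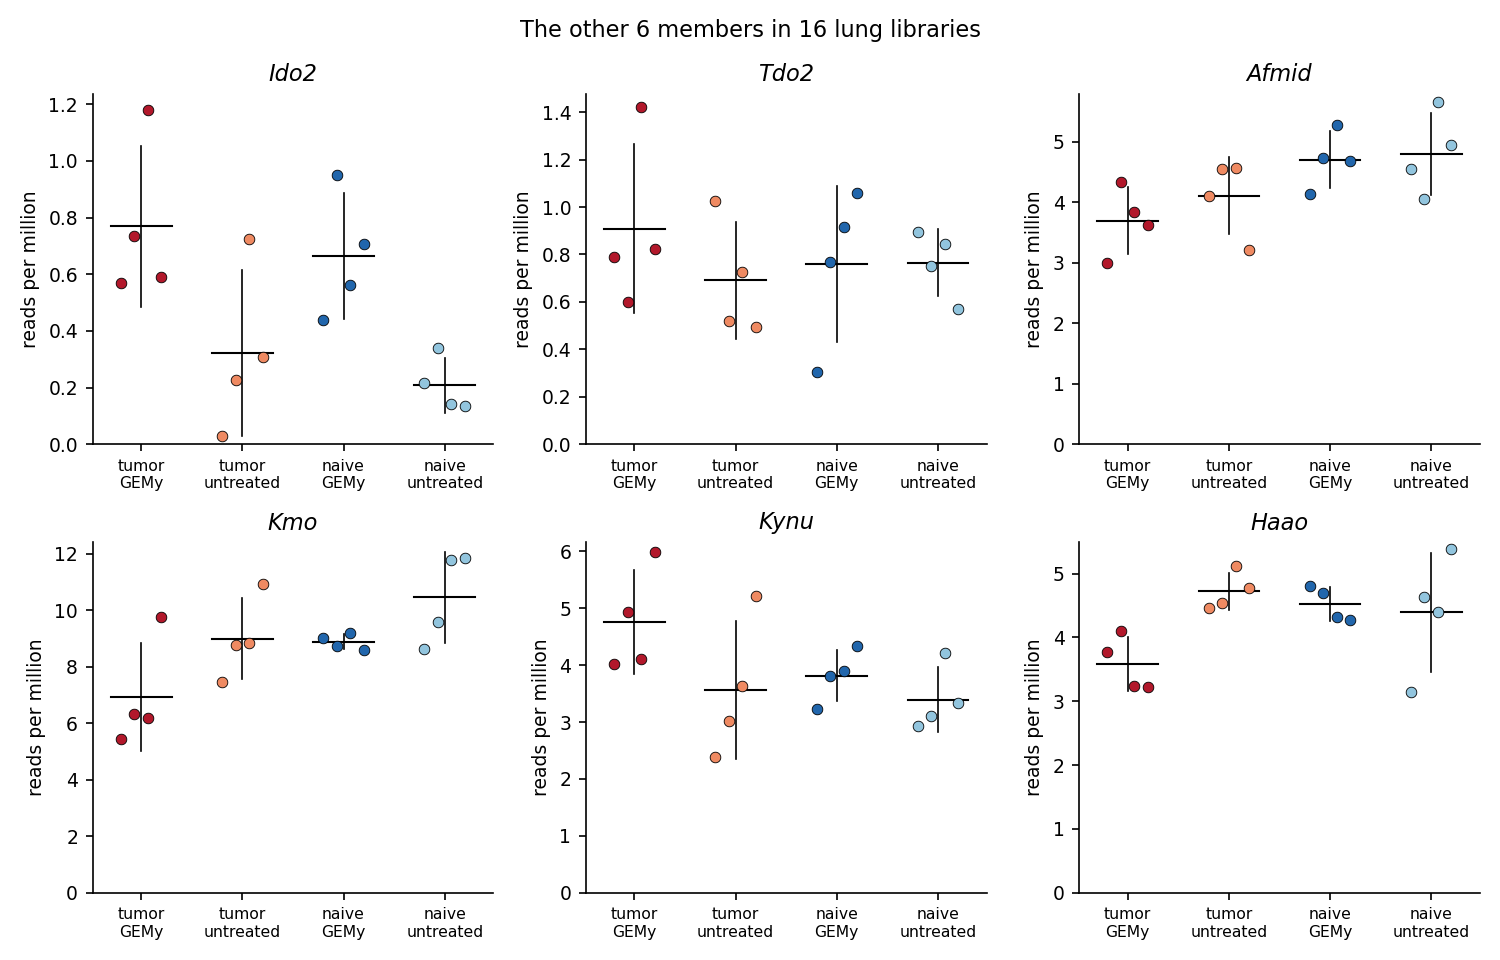
The 6 members other than Ido1 and Wars in RPM, 1 point per lung library, with the group mean (horizontal line) and SD (vertical line), n = 4 each. Ido2 is higher in both groups given IL12-GEMy than in naive_untreated lungs, Tdo2 overlaps in all 4 groups, and tumor_GEMy has the lowest mean for Afmid, Kmo and Haao and the highest for Kynu.

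Afmid, the formamidase that releases kynurenine, lies at chr11:117825919-117839908 in mm10. It had 2.99, 4.33, 3.84 and 3.62 RPM in tumor_GEMy, 4.10, 4.54, 4.57 and 3.21 RPM in tumor_untreated, 4.14, 4.73, 5.27 and 4.68 RPM in naive_GEMy, and 4.55, 4.06, 5.66 and 4.95 RPM in naive_untreated. The groups overlapped in every pair. The tumor_GEMy value against naive_untreated was -0.34 (SE 0.13, adjusted p 0.0554), which was not called. It is called without tumor_GEMy library 2 (-0.41, adjusted p 0.0383) or naive_untreated library 2 (-0.41, adjusted p 0.0391). The other values were -0.32 in tumor_GEMy against naive_GEMy (adjusted p 0.138), -0.13 against tumor_untreated (adjusted p 0.673), and, against naive_untreated, -0.02 in naive_GEMy and -0.21 in tumor_untreated. The genes closest to Afmid over the 16 lungs were Cited2 (r 0.907), Ssh1 (0.892) and Ptprs (0.874). Afmid overlaps Tk1, a thymidine kinase gene on the opposite strand, by 174 bases, and lies within Gm20708 on its own strand. The counting is not stated to use strand, so reads in the shared bases cannot be told apart.

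Kmo, the mitochondrial hydroxylase that commits kynurenine to the NAD branch, lies at chr1:175632193-175660853 in mm10. It had 5.46, 6.34, 6.20 and 9.76 RPM in tumor_GEMy, 7.45, 8.76, 8.85 and 10.9 RPM in tumor_untreated, 9.01, 8.75, 9.21 and 8.60 RPM in naive_GEMy, and 8.63, 9.58, 11.8 and 11.8 RPM in naive_untreated. In 3 of 4 tumor_GEMy libraries Kmo was below every other lung, and library 4 lay within the other groups.

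Kmo was lower in tumor_GEMy than in naive_untreated lungs, at -0.58 (SE 0.15, adjusted p 0.00697). It was -0.37 in tumor_GEMy against tumor_untreated (adjusted p 0.191) and -0.37 against naive_GEMy (adjusted p 0.130), and both are called without tumor_GEMy library 4 (-0.54, adjusted p 0.0191, and -0.53, adjusted p 0.0187). The values in naive_GEMy and tumor_untreated against naive_untreated were -0.21 each and not called. The genes closest to Kmo over the 16 lungs were Bcl11a (r 0.916), Aif1l (0.897) and Tnfrsf13b (0.895), of which Bcl11a and Tnfrsf13b are known from B cells. All 7 B cell markers were lower in tumor_GEMy against naive_untreated lungs (median -1.10), beside 21.8% of all genes. All but Ms4a1 were also lower in tumor_untreated against naive_untreated and in tumor_GEMy against naive_GEMy, where Kmo was not called. Of all genes, 23.2% and 5.68% were lower in these pairs. None of the 7 was called in tumor_GEMy against tumor_untreated (-0.41 to 0.09), where Kmo was -0.37, or in naive_GEMy against naive_untreated. They summed to 170 to 242 RPM in tumor_GEMy, 169 to 308 in tumor_untreated, 320 to 363 in naive_GEMy and 306 to 514 in naive_untreated. The part of the B cell markers in the Kmo values was not tested.

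Kynu, the kynureninase, lies at chr2:43555325-43683048 in mm10. It had 4.02, 4.93, 4.12 and 5.98 RPM in tumor_GEMy, 2.38, 3.02, 3.63 and 5.21 RPM in tumor_untreated, 3.23, 3.81, 3.90 and 4.33 RPM in naive_GEMy, and 2.93, 3.10, 4.22 and 3.33 RPM in naive_untreated. Tumor_GEMy had the highest mean, 4.76 ± 0.911 RPM (SD, n = 4), but its range overlapped each of the others. The value against naive_untreated was 0.43 (SE 0.18, adjusted p 0.0704) and that against tumor_untreated was 0.41 (SE 0.18, adjusted p 0.237). The first is called with median-of-ratios scaling (0.52, adjusted p 0.0401), in a fit of those 8 libraries alone (adjusted p 0.0385) or without naive_untreated library 3 (0.52, adjusted p 0.0457). The second is called without tumor_untreated library 4 (0.59, adjusted p 0.0433), the library rich in hemoglobin. Tumor_GEMy against naive_GEMy gave 0.28 (adjusted p 0.345), and against naive_untreated lungs naive_GEMy gave 0.15 and tumor_untreated 0.02, none of them called. Olr1, a scavenger receptor, followed Kynu most closely (r 0.928), then Supt16 (0.886) and Nolc1 (0.882).

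Haao, the dioxygenase that makes the precursor of quinolinate, lies at chr17:83831354-83846790 in mm10. It had 3.78, 4.10, 3.24 and 3.22 RPM in tumor_GEMy, 4.46, 4.54, 5.11 and 4.78 RPM in tumor_untreated, 4.81, 4.70, 4.32 and 4.27 RPM in naive_GEMy, and 3.15, 4.64, 4.40 and 5.38 RPM in naive_untreated. All tumor_GEMy libraries lay below all tumor_untreated and all naive_GEMy libraries, and naive_untreated spanned both. The values were -0.36 against tumor_untreated (SE 0.13, adjusted p 0.127) and -0.30 against naive_GEMy (SE 0.13, adjusted p 0.141), neither called. Against naive_untreated lungs Haao was -0.24 (adjusted p 0.147), and -0.38 without naive_untreated library 1 (adjusted p 0.0195). Against the same lungs naive_GEMy gave 0.06 and tumor_untreated 0.11, neither called. The genes closest to Haao over the 16 lungs were Ftl1 (r 0.896), Ltb (0.851) and Lyl1 (0.850).

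Per kilobase of their longest coding transcript, the order of the 8 genes differed between groups. In tumor_GEMy lungs it was Wars at 533 RPM per kilobase, Ido1 at 43.9, Haao at 2.60, Kmo at 1.89, Kynu at 1.71, Afmid at 1.59, Ido2 at 0.314 and Tdo2 at 0.265. In naive_untreated lungs it was Wars at 66.3, Haao at 3.18, Kmo at 2.85, Afmid at 2.06, Kynu at 1.22, Ido1 at 0.770, Tdo2 at 0.223 and Ido2 at 0.0847. Ido1 thus stood second in tumor_GEMy lungs and sixth in naive_untreated lungs. The neighbours Kmo, Kynu and Afmid and the neighbours Ido2 and Tdo2 in tumor_GEMy, and Haao and Kmo in naive_untreated, lay within 1 SD of each other. The deposited span of Tdo2 starts at base 81958414, against 81957090 in GENCODE, and that of Kmo at 175632193, against 175620381. The span of Haao is also shorter than its GENCODE gene. Transcript bases outside a span may not have been counted, so these genes may be understated and the order is approximate.

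The genes around the route were read from further lists. The 7 tested aminotransferase and lower-branch genes had 0 members higher in any pair and 4 lower in tumor_GEMy against naive_untreated lungs, the largest being Dhtkd1 (-0.50, adjusted p 0.00702), where 21.8% of all genes were lower. In tumor_untreated against naive_untreated 3 of the 7 were lower, with 23.2% of all genes. Among 9 tested genes of NAD synthesis, Nampt, which recycles nicotinamide, was higher in all 5 pairs, by 1.44 in tumor_GEMy against naive_untreated (adjusted p 1.96e-07) and by 1.00 in naive_GEMy against naive_untreated (adjusted p 3.25e-05). It was the 1 member of that list called higher, and 3 were lower in tumor_GEMy against naive_untreated, Nmnat2 (-0.58), Nmnat3 (-0.38) and Nadsyn1 (-0.25), beside 21.8% of all genes.

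Kynurenine is a ligand of the aryl hydrocarbon receptor, whose classic target is Cyp1a1. Cyp1a1 had 7.09, 11.0, 6.33 and 11.8 RPM in tumor_GEMy, 26.9, 13.1, 10.1 and 11.0 RPM in tumor_untreated, 36.9, 33.1, 30.5 and 32.2 RPM in naive_GEMy, and 51.4, 51.3, 33.8 and 53.6 RPM in naive_untreated. Both tumor groups lay below both tumor-free groups. The fall in tumor_GEMy was -2.35 against naive_untreated (adjusted p 6.42e-06) and -1.86 against naive_GEMy (adjusted p 0.000476), and that in tumor_untreated against naive_untreated was -1.69 (adjusted p 0.000164). Of the 7 tested genes of that list, 0 were higher and 3 lower in tumor_GEMy against naive_untreated, and 1 was higher and 3 lower in tumor_untreated, with 21.8% and 23.2% of all genes lower in these pairs. The receptor gene Ahr was among the lower ones in both pairs, at -0.75 in each (adjusted p 0.00207 and 0.00184). In naive_GEMy against naive_untreated, where Ido1 rose by 4.78, Cyp1a1 was at -0.49 and not called (adjusted p 0.330). Kynurenine itself was not measured, and the part of Ido1 in the Cyp1a1 values was not tested.

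Of 8 transporters of tryptophan and kynurenine, 4 were higher and 1 lower in tumor_untreated against naive_untreated lungs (13.6% and 23.2% of all genes), led by the cystine exchanger Slc7a11 (1.30, adjusted p 0.000113), Slc7a8 (1.00, adjusted p 6.14e-05) and Slc7a5 (0.64, adjusted p 0.00426). In tumor_GEMy against naive_untreated 3 were higher and 1 lower (11.2% and 21.8% of all genes). In naive_GEMy the largest value was Slc7a8 at 0.50, which was not called (adjusted p 0.0507). Of 10 genes of the amino acid shortage response, 5 were higher and 1 lower in tumor_GEMy against naive_untreated (11.2% and 21.8% of all genes). Atf3 led (1.66, adjusted p 3.55e-06), and Trib3 was lower (-0.73, adjusted p 7.74e-05). In tumor_untreated against naive_untreated 4 were higher and 2 lower (13.6% and 23.2% of all genes). Atf3 led again (1.89, adjusted p 7.91e-07), and Trib3 was lower (-0.85, adjusted p 1.62e-05). In naive_GEMy 1 was higher, Atf3 (1.18, adjusted p 0.000391), and 1 lower, Trib3 (-0.42, adjusted p 0.0267), beside 4.53% and 1.38% of all genes. The gene of the sensor kinase, Eif2ak4, had -0.11 in tumor_GEMy against naive_untreated (adjusted p 0.224).

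The injected cell product differed from the lungs in which members it held. With 1 library there is no test, and intervals are exact 95% Poisson intervals that cover counting error only. Kmo had 54.4 RPM in the product (interval 51.9 to 57.1, from 1693 reads), against 5.46 to 11.8 RPM over the 16 lungs. Kynu had 21.6 RPM (20.0 to 23.3, 672 reads), against 2.38 to 5.98 RPM in the lungs. Haao had 8.52 RPM (7.52 to 9.61, 265 reads), against 3.15 to 5.38 RPM in the lungs. These 3 genes were above every lung, at 5.20, 6.36 and 1.94 times the naive_untreated mean. The share of all genes that lie above or below every lung in the product was not counted. Being outside the lung range is therefore not shown to be particular to these members.

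Ido1 had 0.161 RPM in the product, from 5 reads, which is 0.126 times the naive_untreated mean (interval 0.0409 to 0.294). Wars had 93.7 RPM, 0.499 times that mean, and Afmid 2.09 RPM, 0.435 times it. Tdo2 had 0 reads. The floor of 3 reads used for a count of 0 is 0.0964 RPM, and the exact Poisson interval reaches 0.119 RPM. Ido1, Wars, Afmid and Tdo2 were thus below every lung, and Ido2 had 0.225 RPM from 7 reads, within the range of the lungs. The 10 monocyte and macrophage markers summed to 3449 RPM in the product, though Mrc1 (47.5 RPM) was below every lung. The 10 neutrophil markers summed to 2900 RPM, within the range of the lungs. Of these, Mmp8 (881 RPM) was above every lung, and Retnlg (0.225 RPM) and Mmp9 (0.836 RPM) were below every lung. The 7 B cell markers summed to 32.1 RPM, which is below every lung.

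**Figure D5:**
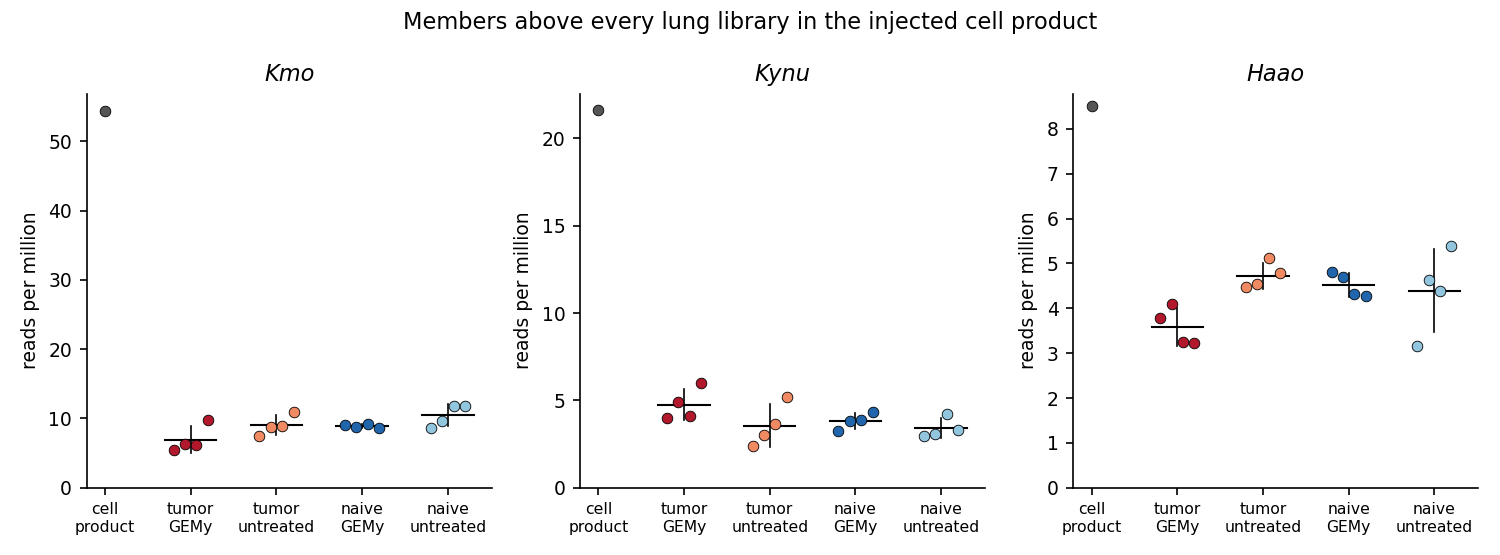
Kmo, Kynu and Haao in RPM in the 1 cell product library and in the 16 lung libraries, with the mean (horizontal line) and SD (vertical line) of each lung group, n = 4 each. The product lies above every lung for all 3 genes, at 54.4, 21.6 and 8.52 RPM.

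The promoters of Kmo and Haao, from the 3 genes above every lung in the product, are shown as RefSeq gives them for GRCm38.p6, from 250 bases before to 50 after the start of the gene, 5′ to 3′ on the strand of the gene. Promoter sequences were at hand for 4 of the 8 members, Kmo, Haao, Tdo2 and Afmid. Capitals mark GAGGAA, the core bound by the myeloid and B cell factor PU.1, in Kmo, and GCGTG, the core bound by the aryl hydrocarbon receptor, in Haao. The Kmo window is chr1:175631943-175632242 (plus strand) and the Haao window chr17:83846741-83847040 (minus strand).

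Kmo: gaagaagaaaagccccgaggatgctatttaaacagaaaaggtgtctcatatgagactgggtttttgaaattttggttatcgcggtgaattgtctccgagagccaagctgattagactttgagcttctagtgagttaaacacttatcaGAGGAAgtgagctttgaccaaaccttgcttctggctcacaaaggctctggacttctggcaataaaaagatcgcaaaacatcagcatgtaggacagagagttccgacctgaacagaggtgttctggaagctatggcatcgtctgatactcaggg
Haao: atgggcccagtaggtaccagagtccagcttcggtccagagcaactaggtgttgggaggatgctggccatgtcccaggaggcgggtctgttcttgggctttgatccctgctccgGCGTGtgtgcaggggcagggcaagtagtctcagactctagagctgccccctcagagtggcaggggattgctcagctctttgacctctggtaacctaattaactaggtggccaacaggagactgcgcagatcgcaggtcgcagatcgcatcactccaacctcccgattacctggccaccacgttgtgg

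Both strands of each window were searched. GAGGAA was found in Kmo, starting 103 bases before the start of the gene, and in none of the other 3 members, and 28.3% of 32851 promoters of this length hold it. GCGTG was found in Haao, 137 bases before the start, and in Tdo2, 194 bases before it, and 32.4% of promoters hold it. The interferon gamma activated site, searched as TTCNNNGAA, and the interferon-stimulated response element, searched as GAAANNGAAA, were not found in the 4 windows, and 8.30% and 3.44% of promoters hold them. The motifs searched do not overlap one another in these windows. A match describes letters only.

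Wars overlaps Wdr25, on the opposite strand, by 544 bases, and Wdr25 is listed at 4.10 to 7.03 RPM in the lungs, far below Wars at 157 to 1729 RPM.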

How the data were processed

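Total RNA from flash frozen lung was sequenced in 16 libraries, and 1 library came from the cell product. The authors deposited FPKM for 18262 genes. Reads were aligned with STAR 2.7.3a to mm10 and handled in Partek, per the submitters' processing notes, and the annotation, settings and strand use are not given in the sources used here. FPKM times the genomic span of a gene, introns included, summed to 1000000 per library after division by 1000, so it was turned back into RPM, reads per 1000000. The smallest step gave read numbers, and 86.7 to 88.4% of values under 1000 reads came out whole within 0.02.

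Lung values were fitted as log2(RPM + 0.5) with limma 3.58.1 in R 4.3.3 (trend and robust moderation, 2-sided), for 17192 genes with at least 0.1 RPM in at least 4 lungs. All 8 members passed that minimum. The contrasts were 5 group pairs plus the tumor by GEMy interaction, with Benjamini-Hochberg adjustment over all genes at 0.05. Genes most alike a member were sought only where both averaged at least 1 RPM, while correlations between members had no minimum. Gene lengths and coding sequences came from the GENCODE annotation of mm10, and promoters from RefSeq. On simulated data for tumor_GEMy against tumor_untreated, the fit recovered 71% of 200 genes planted at 1.5-fold, with 16972 genes tested and 8 false calls. At 2-fold it recovered 92.5% of 200, with 16976 genes tested and 5 false calls. The 8 members, the gene lists and the tests were chosen with earlier results of these data known. Every member is named in every comparison, from each list at most the 3 largest changes, and the 3 genes most alike each member averaging 1 RPM or more, without predicted genes, pseudogenes, histone, ribosomal, small RNA and receptor segment genes. Ifng by library, Ifngr1, Ifngr2, Eif2ak4, Wars2, Wdr25, and Trib3, Nmnat3 and Nadsyn1 in some comparisons, were added after their values were seen. So were Ms4a1 among the B cell markers, and Mrc1, Mmp8, Retnlg and Mmp9 in the cell product.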

Additional observations from a re-analysis of the deposited data

Results flagged for a closer look

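Wars in tumor_GEMy lungs had 1 library below the other 3, library 4 at 1294 RPM against 1561 to 1613 RPM in libraries 1 to 3, and the gap to the nearest took 0.838 of the range. That library was also the one with the highest Kmo of its group. With 32 groups of 4 looked at in this way, chance alone flags about 1 in 20. The fold change of Wars with IL12-GEMy differed between tumor-bearing and tumor-free mice by -1.11 on the log2 scale (limma adjusted p 0.00658). The tumor_untreated lungs stood at 289 to 530 RPM against 157 to 208 RPM in naive_untreated lungs, while the tumor_GEMy and naive_GEMy ranges overlapped.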

How the results depend on the processing

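Ido1 and Wars kept their direction and their calls against naive_untreated lungs in all 3 pairs under all 19 alternatives run for each, with Ido1 at 3.30 to 5.74 in tumor_GEMy, 2.83 to 5.22 in naive_GEMy and 1.56 to 3.68 in tumor_untreated, with the lowest value of each on the FPKM scale. So did Wars in tumor_GEMy against tumor_untreated (1.73 to 2.02) and in the interaction (-1.28 to -0.98 over 26). Members called higher in tumor_GEMy against tumor_untreated fell to 1 in a fit of the compared groups only, and ranged from 1 to 3 on leaving out 1 library, while those lower ranged from 0 to 1. Members higher in naive_GEMy against naive_untreated were 3, with Ido2 added, under quantile normalization and in a fit of the compared groups only. Members lower in tumor_GEMy against naive_GEMy ranged from 0 to 1. Members lower in tumor_GEMy against naive_untreated were 0 on the FPKM scale, where only Ido1 and Wars passed the minimum, 2 with quantile normalization, and 1 to 2 on leaving out 1 library. Members lower in the interaction were 2 with a pseudocount of 0.1, with no minimum, with a minimum of 1 RPM and with hemoglobin as a covariate, and 1 to 2 on leaving out 1 library, the added gene being Ido1.

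No call changed sign. Uncalled values that did were Tdo2 (0.038) and Kynu (-0.013) in tumor_untreated against naive_untreated with the hemoglobin covariate, Afmid in naive_GEMy against naive_untreated with median-of-ratios scaling (0.0062), Wars in tumor_GEMy against naive_GEMy with quantile normalization (-0.13) and the hemoglobin covariate (-0.22), and Ido2 in the interaction with voom on recovered reads (0.13). Leaving out 1 library gave, in tumor_untreated against naive_untreated, -0.053 to 0.35 for Ido2, -0.16 to 0.17 for Kynu and -0.019 to 0.21 for Haao. In naive_GEMy against naive_untreated it gave -0.16 to 0.16 for Tdo2, -0.076 to 0.15 for Haao and -0.092 to 0.053 for Afmid. In tumor_GEMy against naive_GEMy it gave -0.024 to 0.23 for Ido2, -0.032 to 0.29 for Tdo2 and -0.11 to 0.074 for Wars. Tdo2 ran from -0.030 to 0.24 in tumor_GEMy against naive_untreated, and Ido2 from -0.23 to 0.17 in the interaction. The cause was not tested.

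Replicate numbers were not used as pairs in the main fit. Same-numbered libraries correlated at -0.22 to 0.45, with a median of 0.080 against -0.025 for other numbers. Of 24 same-numbered pairs 11 were over 0.1, and 8 of 16 libraries matched their own number best. These values do not settle whether same-numbered libraries belong together. With the replicate block, Ido2 passed in naive_GEMy against naive_untreated (adjusted p 0.0281) and in tumor_GEMy against tumor_untreated (0.0431), Kynu (0.0226) and Afmid (0.0387) passed in tumor_GEMy against naive_untreated, which then had 2 members lower, and the interaction called 222 genes higher, against 141 without it. Scaling by median of ratios moved the split of all calls to 3146 higher and 2506 lower in tumor_untreated against naive_untreated (2339 and 3987 otherwise), to 830 and 472 in tumor_GEMy against naive_GEMy (599 and 976), and to 2622 and 1988 in tumor_GEMy against naive_untreated (1931 and 3756). Quantile normalization gave 679 and 695 in tumor_GEMy against naive_GEMy, and the FPKM scale 154 lower in naive_GEMy against naive_untreated, with 10284 genes tested. The hemoglobin covariate gave 147 and 36 in tumor_GEMy against naive_GEMy, and 687 and 403 in naive_GEMy against naive_untreated (779 and 237). It gave 2294 lower in tumor_untreated against naive_untreated and 217 higher in the interaction. A fit of the compared groups only gave 130 and 111 in tumor_GEMy against tumor_untreated (382 and 442), and 609 lower in naive_GEMy against naive_untreated. Voom on recovered reads called 380 higher and 436 lower in tumor_GEMy against tumor_untreated. Ido2 and Tdo2 rest on 1 to 47 reads per lung, which limits their precision.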
